A study of Mus musculus with 102 samples.

Results

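Low-methylated regions (LMRs) are CpG-poor stretches of the genome whose methylation is lowered where transcription factors bind, and many of them are distal enhancers. The regions described here are LMRs of mouse neuronal progenitors (NP-specific LMRs), which are taken to be enhancers not in use in embryonic stem cells (ESCs), the cells measured here. Methyl groups are added to unmethylated CpGs by the de novo methyltransferases DNMT3A and DNMT3B. They are copied to the new strand at replication by DNMT1, and TET1, TET2 and TET3 oxidise them, which leads to their removal. An enhancer that is silent in ESCs therefore shows how these activities act where no tissue-specific factor is thought to hold methylation low.

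Of 88 regions in the deposited list, 9 are classed as NP-specific LMRs, and they were taken by that class and by position in mm9. Each is 400 bp long. Amplicon bisulfite sequencing, which amplifies chosen regions after unmethylated cytosines are converted and reads the methylation level from the unconverted reads, covered 7 of them. These 7 hold 39 of all 405 amplicon CpGs, which come from 65 amplicons. In the capture data (SureSelect, 2177608 CpGs) 0 CpGs lay inside the regions and 8 lay within 2 kb of their ends.

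The cells were C57BL6/J mouse ESCs whose Dnmt3a and Dnmt3b alleles are flanked by loxP sites, so that all groups, controls included, carry floxed alleles. The wild-type (WT) line has intact TET genes, and the TTKO line is 1 clone derived from it with mutations in all Tet1, Tet2 and Tet3 alleles. Both lines were sampled before transduction (day 0) and at days 4, 8, 10, 13, 17 and 29 after transduction with Cre protein, which deletes Dnmt3a and Dnmt3b, or after mock treatment with the protein's buffer, with 3 replicates per line, treatment and day. Deletion by Cre protein is not complete in every cell. The study's methods call the replicates biological, the labels do not say whether they were separate cultures, and the p-values measure the spread between these samples. Neuronal progenitors were not among the samples.

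Between 1892003 and 4706318 reads covered CpGs in each of the 78 amplicon samples. The median coverage of a CpG in the NP-specific LMRs ran from 972 to 11233 reads between samples, and a level was given where at least 100 reads covered the CpG. At days 0 and 29 every one of the 39 CpGs had a level in every sample. At day 4 fewer had: 1 TTKO Cre sample gave levels for 21 of them. At days 0 and 29 coverage was lowest in the region beside Cadm1, at 136 reads or more with a median of 296, and highest in the Aff3 region, with a median of 13511. On some other days coverage beside Cadm1 fell under the 100 reads that a level needs. Reads were amplified without molecular identifiers, so any interval computed from them covers counting error only.

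The regions are named here by the nearest protein-coding gene of the GENCODE M1 annotation, and none of these genes was measured. The Irx4-side region (chr13:73207709-73208108, 10 measured CpGs) is intergenic, 189837 bp from Irx4, which encodes a homeobox transcription factor. Another region on that side (chr13:73179033-73179432), 218513 bp from the gene, has no amplicon CpGs. The Gm10295-side region (chr7:78616497-78616896, 8 CpGs) is intergenic, 120126 bp from the predicted gene Gm10295, and the next gene, Mctp2, is 605822 bp away. The Aff3 region (chr1:38493373-38493772, 5 CpGs) lies in an intron of Aff3, a gene for a nuclear protein of the AF4 family. The Scube1 region (chr15:83540476-83540875, 4 CpGs) is in an intron of Scube1, which encodes a secreted and cell-surface protein, 14775 bp from its start. The Fbxl17 region (chr17:63460319-63460718, 3 CpGs) is in an intron of Fbxl17, which encodes an F-box protein.

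The Gpr26-side region (chr7:138969877-138970276, 6 CpGs) overlaps only 1 of 29 annotated transcripts of Fgfr2, a readthrough transcript, and the other Fgfr2 transcripts end 1559555 bp away. It is therefore named by the nearest other gene, Gpr26, an orphan receptor gene at 187867 bp. The Cadm1-side region (chr9:47313843-47314242, 3 CpGs) is 24014 bp from Cadm1, which encodes a cell adhesion molecule. The last region (chr14:22188234-22188633) overlaps a coding exon of Adk, the adenosine kinase gene, and holds no amplicon CpGs. No measured CpG of the other regions lay in an exon.

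The stretches below, from the mm9 reference on the plus strand, run from 12 bases before the first to 12 bases after the last measured CpG. Measured CpGs are in capitals, and a CG in lower case was not measured. These 5 regions are shown because they include the CpG with the largest loss in TTKO cells, the regions in which the effect of Cre differed most and least between the lines, and the amplicons whose CpGs are described one by one.
Irx4 side, chr13:73207771-73207956: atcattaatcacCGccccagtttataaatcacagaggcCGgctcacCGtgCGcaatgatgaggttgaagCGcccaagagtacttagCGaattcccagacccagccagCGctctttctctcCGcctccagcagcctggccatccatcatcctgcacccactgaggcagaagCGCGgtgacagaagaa
Gm10295 side, chr7:78616640-78616854: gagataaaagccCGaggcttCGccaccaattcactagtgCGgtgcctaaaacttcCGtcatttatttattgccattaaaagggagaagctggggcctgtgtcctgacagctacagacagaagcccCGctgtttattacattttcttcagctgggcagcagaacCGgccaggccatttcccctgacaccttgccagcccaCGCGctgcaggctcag
Aff3 intron, chr1:38493428-38493564: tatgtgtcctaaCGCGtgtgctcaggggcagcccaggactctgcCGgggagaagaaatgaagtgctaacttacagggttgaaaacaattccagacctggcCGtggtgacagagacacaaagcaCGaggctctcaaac
Gpr26 side, chr7:138970019-138970187: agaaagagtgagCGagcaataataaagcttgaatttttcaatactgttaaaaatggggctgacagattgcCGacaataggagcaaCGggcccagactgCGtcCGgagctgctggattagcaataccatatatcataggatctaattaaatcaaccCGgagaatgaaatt
Cadm1 side, chr9:47314042-47314210: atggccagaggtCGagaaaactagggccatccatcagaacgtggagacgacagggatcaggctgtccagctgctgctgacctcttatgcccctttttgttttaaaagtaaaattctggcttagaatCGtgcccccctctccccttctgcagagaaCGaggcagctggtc

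A 400-bp region contained a median of 8 CpGs (4 to 12), against 14.5 in the 8 ESC-specific LMRs, 9 in the 19 other constitutive LMRs, 7 in the 28 LMRs bound by REST, 6.5 in the 6 bound by CTCF, 6 in the 6 fully methylated regions, 21 in the 9 unmethylated regions and 3 in 145353 windows of the same length on chromosome 19. The SOX core ACAAT, on either strand, was present in 6 of the 9 regions (66.7%) and in 57.0% of the chromosome 19 windows. The E-box CAGCTG was present in 2 of the 9 (22.2%), in 14.9% of those windows and in 22.8% of the 79 other listed regions, and the E-box CATCTG, on either strand, in 2 of the 9 (22.2%), 28.0% and 38.0%. ACAAT was present in 49.4% of the other listed regions. Of the other motifs searched on both strands, the SOX motif ACAAAG was in 4 of the 9 (44.4%), 32.7% of the windows and 30.4% of the other listed regions, the NFI motif TTGGC in 5 (55.6%), 48.2% and 64.6%, and the POU motif ATGCAAAT in 0, 3.17% and 3.80%.

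In unperturbed cells the NP-specific LMRs were highly methylated in both lines, unlike regions that are low-methylated in ESCs. The mean over the 39 CpGs was 80.4% ± 1.01 in WT cells and 90.8% ± 0.656 in TTKO cells (SD, n = 3). The WT replicates were at 80.1%, 79.7% and 81.6%, and the TTKO replicates were at 91.4%, 91.0% and 90.1%, so the lines did not overlap. The means of the 64 CpGs in ESC-specific LMRs were 29.2% in WT and 49.2% in TTKO, and those of the 59 CpGs in other constitutive LMRs were 20.6% and 61.5%, leaving out constitutive LMRs bound by CTCF or REST. The 22 CpGs of fully methylated regions were at 71.1% and 86.6%. The list also holds 1 methylated island, with 12 CpGs at 90.2% and 95.2%, and 1 region classed as a methylated UMR, with 6 CpGs at 79.9% and 87.3%. The label of the regions therefore describes neuronal progenitors, not the level measured in these cells.

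Most of these CpGs were more methylated at day 0 in the cells with mutated Tet genes. Of the 39, 32 were more methylated in TTKO than in WT cells at day 0 (quasi-binomial test with Benjamini-Hochberg adjustment over 405 CpGs, adjusted p threshold 0.05). Over all amplicon CpGs the share that was higher was 59.3%. Of the 32, 13 also differed by at least 10 percentage points. The median log2 odds ratio was 1.33 for the 39 CpGs and 1.17 for all, and was 1.23 for the 22 CpGs of fully methylated regions, 1.78 in ESC-specific LMRs and 3.42 in the other constitutive LMRs. Summed over each region, 6 of 7 regions were higher in TTKO cells, where 78.5% of 65 amplicons were. The exception was the Cadm1-side region, with 73.5% ± 4.25 in TTKO and 63.2% ± 1.77 in WT cells (SD, n = 3) and a log2 odds ratio of 0.71 ± 0.32 (SE, adjusted p = 0.0780). Its replicates ran from 69.3% to 77.8% in TTKO and from 61.2% to 64.6% in WT cells. By limma on logit levels 7 of 7 regions were called.

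The 3 largest log2 odds ratios between the lines at day 0 sat next to each other on the Gm10295 side. The CpG at chr7:78616652-78616653 was at 55.7%, 60.5% and 54.7% in WT replicates and at 87.8%, 92.2% and 93.2% in TTKO replicates, a log2 odds ratio of 2.92 ± 0.23 (SE). The CpG at 78616660 had a log2 odds ratio of 2.61 ± 0.22, and that at 78616679 one of 2.95 ± 0.31. In the CGCG at the other end of the same amplicon, the CpG at 78616839 was at 91.7% in WT and 96.4% in TTKO cells, a log2 odds ratio of 1.24 ± 0.28 (adjusted p = 0.00535), and the CpG at 78616841 was at 95.4% and 97.0% and did not pass the test (adjusted p = 0.110). The 3 smallest log2 odds ratios were 0.32 ± 0.51 at chr9:47314168, 0.61 ± 0.26 at chr13:73207821 and 0.62 ± 0.24 at chr15:83540795, and none of them passed (adjusted p = 0.627, 0.0737 and 0.0535).

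After Cre transduction, methylation of the NP-specific LMRs declined in both lines, and at days 13, 17 and 29 every WT Cre replicate was below every TTKO Cre replicate. In TTKO cells the mean of the 39 CpGs stood at 88.2% ± 0.137 on day 8 and 85.4% ± 0.933 on day 13, and had reached 80.2% ± 1.51 by day 17 and 73.9% ± 0.356 by day 29 (SD, n = 3). The WT mean, 83.7% ± 0.839 on day 4, was down to 73.4% ± 4.52 on day 13, to 67.1% ± 1.499 on day 17 and to 51.2% ± 2.86 on day 29. The day 29 replicates were at 73.6%, 74.0% and 74.3% in TTKO and at 49.7%, 54.5% and 49.4% in WT cells. At day 29 the mock samples were at 91.2% ± 0.796 in TTKO and 86.3% ± 0.521 in WT cells, above every Cre replicate of their line. Days with a level missing in a sample are left out of these means. For CpGs measured in all samples of their line, the TTKO mean went from 93.6% ± 0.600 at day 0 to 79.4% ± 0.847 at day 29 after Cre (21 CpGs, mock 93.5% ± 0.579), and the WT mean from 80.7% ± 0.731 to 47.6% ± 3.41 (26 CpGs, mock 86.3% ± 0.654).

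**Figure D1:**
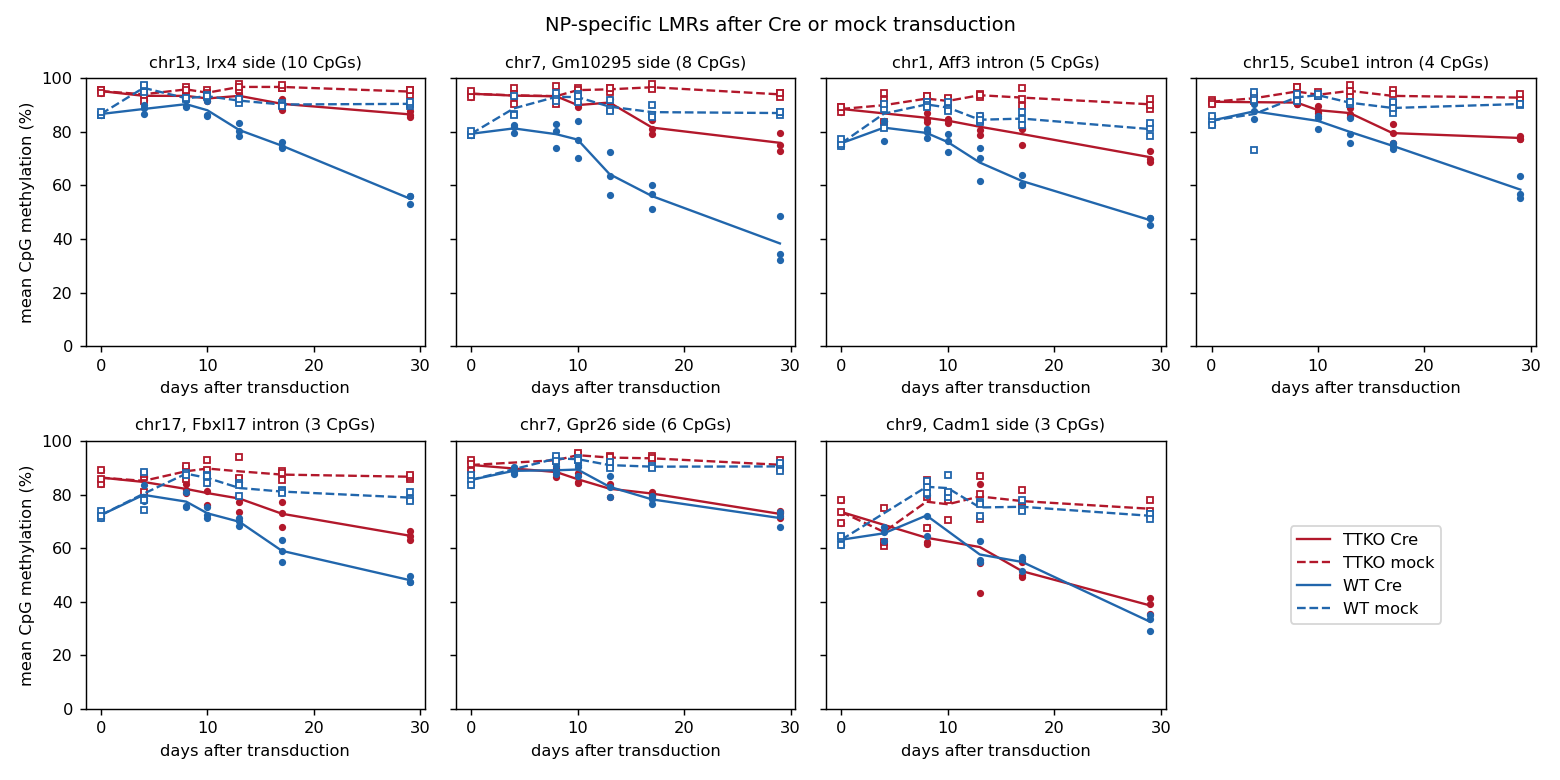
Mean methylation level (%, y axis) of the CpGs of each of the 7 regions against days after transduction (x axis), in TTKO (red) and WT (blue) cells after Cre (solid lines, filled points) or mock treatment (dashed lines, open points). Points are replicates, lines join their means, and days on which a CpG of the region lacked a level are left out. At day 29 the WT Cre replicates of the Irx4-side region lay between 53.1% and 56.2% and the TTKO Cre replicates between 85.6% and 87.7%, whereas on the Gpr26 side both lines were between 68.1% and 73.9%.

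In the WT line the mock samples themselves changed. Their mean over the 39 CpGs was 91.5% ± 0.839 on day 8, 91.4% ± 0.530 on day 10 and 88.2% ± 0.837 on day 13 (SD, n = 3), above the 80.4% of day 0, and the replicates of day 8 and day 0 did not overlap. The 278 CpGs with a level in every WT sample rose from 28.3% ± 0.460 at day 0 to 38.8% ± 1.27 in the mock at day 8 and were at 30.4% ± 0.461 at day 29. In TTKO cells the mock mean of the 39 CpGs lay between 91.2% ± 0.796 at day 29 and 93.7% ± 1.27 at day 13 from day 8 on. At day 8 the mock means were 91.5% in WT and 92.4% ± 0.189 in TTKO cells, nearer each other than the day 0 means. Cre samples were therefore tested against the mock samples of the same day.

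The number of single CpGs that passed the test in TTKO cells was highest at day 29. Lower methylation after Cre than after mock was called at 0 of 21 CpGs at day 4 (0% of all CpGs, with 0 of the 21 lower at an unadjusted p under 0.05 and 0 called by limma on logit levels). It was called at 3 of 39 at day 8 (17.6% of all CpGs), 16 of 36 at day 10 (43.8%), 11 of 39 at day 13 (33.7%), 26 of 39 at day 17 (54.9%) and 36 of 39 at day 29 (66.7%). By limma the count was 0 at day 8 and 7 at day 13, and asking also for a difference of 10 percentage points left 7 at day 10, 5 at day 13 and 16 at day 17. Many amplicon CpGs are unmethylated from the start and have little to lose. Among the 143 CpGs with a day 0 level of at least 50%, a cutoff set after the data were seen, which include these 39, 88.8% were lower at day 29, close to the 92.3% of the NP-specific LMRs. On the earlier days the share among such CpGs was above that of the NP-specific LMRs, at 14.5% against 7.69% on day 8, 53.0% against 44.4% on day 10, 42.5% against 28.2% on day 13 and 72.1% against 66.7% on day 17. The median log2 odds ratio at day 29 was -1.94 for the 39 CpGs and -1.91 for all 384 tested. It was -2.68 in other constitutive LMRs, -2.39 in ESC-specific LMRs and -2.26 in fully methylated regions. In the methylated UMR it was -1.78, and in the methylated island -1.24.

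In WT cells the call was made at 0 of 30 CpGs at day 4 (0% of all CpGs, with 6 of the 30 lower at an unadjusted p under 0.05 and 1 called by limma on logit levels). It was made at 11 of 35 at day 8 (38.3% of all), 15 of 36 at day 10 (25.2%), 18 of 39 at day 13 (32.4%), 38 of 39 at day 17 (51.4%) and 39 of 39 at day 29 (51.8%). By limma it was 8 at day 10 and 10 at day 13. Among CpGs with a WT day 0 level of at least 50%, which again include these, 31.9% were lower on day 8, 30.8% on day 10, 40.0% on day 13, 93.9% on day 17 and 93.4% on day 29, beside 31.4%, 41.7%, 46.2%, 97.4% and 100% of the NP-specific LMRs. The median log2 odds ratio at day 29 was -2.62 for the 39 CpGs and -1.64 for all 392 tested, with -2.77 in other constitutive LMRs, -2.49 in the methylated UMR, -2.04 in ESC-specific LMRs, -2.04 in fully methylated regions and -2.01 in the methylated island. All 39 CpGs in WT cells, and 24 in TTKO cells, both passed the test at day 29 and differed by at least 10 percentage points.

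The 3 CpGs that did not pass in TTKO cells at day 29 kept nearly all of their methylation. The CpG at chr13:73207821 was at 91.0%, 90.9% and 90.4% after Cre and at 91.7%, 93.8% and 94.9% after mock (adjusted p = 0.208). The CpG at chr13:73207943 was at 95.2%, 95.7% and 96.2% after Cre and at 98.4%, 96.7% and 98.8% after mock (adjusted p = 0.0562). On the Gpr26 side, the CpG at chr7:138970121 was at 93.0%, 95.4% and 93.0% after Cre and at 95.8%, 95.9% and 97.8% after mock (adjusted p = 0.275). The lowest mock coverage of this CpG was 186 reads. In each of the 3 the Cre replicates were below the mock replicates. In WT cells the same 3 CpGs fell to 60.7% ± 2.64, 67.4% ± 8.11 and 83.8% ± 3.43 (SD, n = 3).

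The share of the day 0 level that TTKO cells kept at day 29 spanned a wide range within this class of region, from 27.4% to 98.2%, with a median of 86.0%. The lowest shares were at chr9:47314168 (27.4%), chr17:63460618 (46.3%) and chr9:47314054 (46.6%). The first of these was at 52.6%, 66.8% and 49.4% at day 0 and at 12.7%, 14.5% and 19.05% at day 29, with no overlap, at a coverage of 147 to 268 reads at day 29. The Fbxl17 intron CpG at chr17:63460618 went from 77.2%, 69.3% and 77.0% to 35.1%, 35.8% and 32.6%. The highest shares were at chr15:83540795 (98.2%), chr13:73207943 (97.5%) and chr13:73207821 (97.2%). In other CpGs of at least 50% at day 0 the median share was 62.2% in 15 CpGs of fully methylated regions, 47.1% in 33 of other constitutive LMRs, 89.7% in 24 of ESC-specific LMRs, 93.7% in 12 of the methylated island and 81.5% in 6 of the methylated UMR.

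By region, 7 of 7 were lower after Cre than after mock at day 29 in TTKO cells, where 91.9% of 62 amplicons were, and 7 of 7 in WT cells, where 73% of 63 amplicons were. The Irx4-side region changed least in TTKO cells. Its replicates were at 93.8%, 95.8% and 95.7% after mock and at 87.7%, 86.4% and 85.6% after Cre, a log2 odds ratio of -1.52 ± 0.19 (SE). In WT cells they went from 89.8%, 90.4% and 91.3% to 56.0%, 56.2% and 53.1%, a log2 odds ratio of -2.94 ± 0.10. The same region thus kept 91.0% of the mock level in TTKO and 60.9% in WT cells.

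The Gm10295-side region lost the most percentage points of the 7 regions in WT cells. Its WT replicates were at 86.4%, 87.3% and 87.5% after mock and at 32.0%, 48.6% and 34.4% after Cre, with replicate 2 well above the other two. Its TTKO replicates were at 94.6%, 93.0% and 94.6% after mock and at 73.1%, 75.3% and 79.5% after Cre. The log2 odds ratios were -3.49 ± 0.32 (SE) in WT and -2.31 ± 0.18 in TTKO cells. The Scube1 region went from 90.3%, 90.5% and 90.5% to 56.7%, 63.5% and 55.2% in WT cells and from 92.4%, 92.0% and 94.1% to 77.2%, 77.4% and 78.7% in TTKO cells.

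On the Gpr26 side the losses of the lines were not told apart. In WT cells its replicates were at 91.1%, 88.8% and 91.8% after mock and at 68.1%, 72.0% and 73.7% after Cre. In TTKO cells they were at 90.5%, 89.99% and 93.0% after mock and at 73.3%, 73.9% and 71.2% after Cre. The lowest coverage among these TTKO mock samples was 181 to 186 reads per CpG, and the highest was 5014 to 5070. The Cre samples of the lines overlapped, although this region was less methylated in WT than in TTKO cells at day 0 (85.5% ± 1.90 against 91.1% ± 2.21, SD, n = 3, adjusted p = 0.00447).

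The Cadm1-side region had the lowest level in both lines, with 38.6% ± 3.01 in TTKO and 32.5% ± 3.09 in WT cells after Cre and 74.7% ± 2.78 and 72.1% ± 1.06 after mock (SD, n = 3). The Aff3 region was at 70.6% ± 1.97 in TTKO and 47.1% ± 1.53 in WT cells after Cre, and the Fbxl17 region at 64.7% ± 1.69 and 48.1% ± 1.19. In both of these the Cre replicates of the lines did not overlap.

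Whether Cre had a different effect in the lines was tested as the interaction of line and treatment in the 12 day 29 samples. The effect was less negative in TTKO than in WT cells at 5 of the 39 CpGs, against 3.12% of all 384 CpGs, and 3 were called by limma on logit levels. The median interaction on the log2 odds scale was 0.91 for the 39 CpGs and -0.22 for all, and it was 0.97 in the methylated island and 0.61 in the methylated UMR. The 5 were chr13:73207817, 73207821, 73207840 and 73207878 on the Irx4 side and chr1:38493528 in the Aff3 intron. This count rested on single samples. It was 0 without TTKO Cre replicate 1, 2 without TTKO Cre replicate 2 or 3, TTKO mock replicate 1 or WT mock replicate 3, 3 without TTKO mock replicate 2, WT mock replicate 1 or 2 or WT Cre replicate 1, and 15 without WT Cre replicate 2.

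The same test on reads summed over each region, added after the data were seen, called 2 of 7 regions, against 19.4% of 62 amplicons. On the Irx4 side the interaction was 1.43 ± 0.22 (SE, adjusted p = 0.00151), and it was called without any 1 of the 12 samples (adjusted p from 0.00141 to 0.0112). In the Scube1 region it was 0.84 ± 0.23 (adjusted p = 0.0235), which did not pass without WT mock replicate 2, TTKO mock replicate 1 or TTKO Cre replicate 3 (adjusted p = 0.0576, 0.0575 and 0.0539) and left 1 region called. On the Gm10295 side it was 1.19 ± 0.44 (adjusted p = 0.0609), and it passed without WT Cre replicate 2, at 1.46 ± 0.21 (adjusted p = 0.00141), with 3 regions called. It also passed with all 12 samples in limma on logit levels, at 1.13 ± 0.36 (adjusted p = 0.0297), which called the same 3 regions.

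In the other regions the interaction was not separable from 0. It was 0.35 ± 0.20 (SE) in the Aff3 region, 0.19 ± 0.18 in the Fbxl17 region, 0.09 ± 0.23 on the Gpr26 side and 0.11 ± 0.38 on the Cadm1 side, with adjusted p from 0.197 to 0.840. The log2 odds ratios of TTKO over WT at day 0 in the same regions were 1.33 ± 0.09, 1.27 ± 0.21, 0.94 ± 0.21 and 0.71 ± 0.32, beside 1.62 ± 0.13 on the Irx4 side, 2.07 ± 0.12 on the Gm10295 side and 1.01 ± 0.15 in the Scube1 region.

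**Figure D2:**
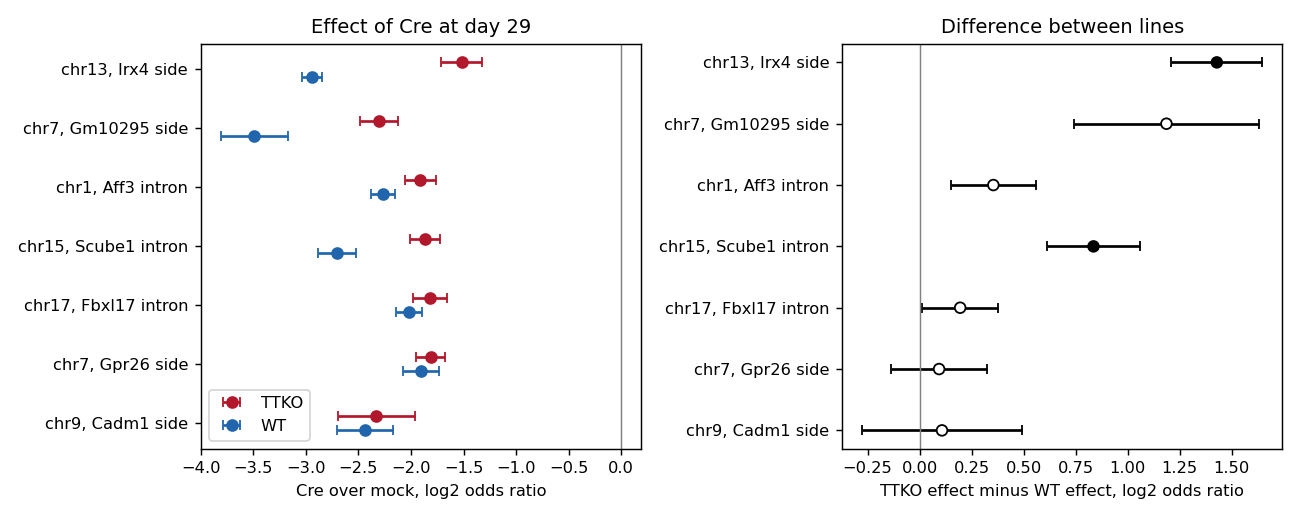
Left, log2 odds ratio of methylation after Cre over mock at day 29 (x axis) for each region (y axis) in TTKO (red) and WT (blue) cells, and right, the TTKO effect minus the WT effect on the same scale. Bars are standard errors and filled points on the right passed an adjusted p of 0.05. The difference was 1.43 on the Irx4 side and 0.09 on the Gpr26 side.

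CpGs of 1 amplicon, read on the same molecules, ended at very different levels. In the Aff3 intron, in the order of the capitals above, TTKO cells were at 89.5%, 87.0%, 84.2%, 53.1% and 39.0% at day 29 after Cre, and WT cells at 79.2%, 70.8%, 48.7%, 20.7% and 15.8%. Levels there fell step by step from the CGCG at -132 and -130 bp from the centre of the region to the CpG at -21 bp, in both lines and already at day 0 (94.3% to 78.4% in TTKO, 88.0% to 60.8% in WT). On the Gpr26 side, the TTKO levels were 40.2%, 61.4%, 71.1%, 87.8%, 93.8% and 82.6%, and the WT levels were 54.8%, 59.0%, 63.8%, 81.4%, 83.8% and 84.8%. The CpG at -45 bp of this region, chr7:138970031, kept 48.3% of its day 0 level in TTKO and 70.7% in WT cells. Of its mock level at day 29 it kept 47.4% and 62.0%.

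On the Irx4 side the profile of the WT cells was not that of the TTKO cells. WT Cre levels were 69.9%, 61.9%, 42.6%, 60.7%, 49.0%, 45.5%, 38.0%, 43.4%, 72.8% and 67.4% along the amplicon, so the middle CpGs were lower than both ends, whereas all TTKO levels were between 75.6% and 95.7%. The CpG at chr13:73207891 kept 93.8% of its day 0 level in TTKO and 48.7% in WT cells, and 92.6% and 46.7% of its mock level. On the Gm10295 side, WT levels were 14.2%, 20.4%, 23.1%, 19.8%, 44.1%, 30.9%, 70.7% and 83.6%, and TTKO levels were 62.7%, 79.6%, 83.5%, 70.7%, 71.2%, 66.5%, 85.3% and 87.9%. Here the CpGs of the right-hand CGCG kept 77.1% and 87.6% of their day 0 level in WT cells, while the CpG at 78616652 kept 25.0%. Of the mock level these 3 CpGs kept 75.6%, 86.5% and 19.8%.

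**Figure D3:**
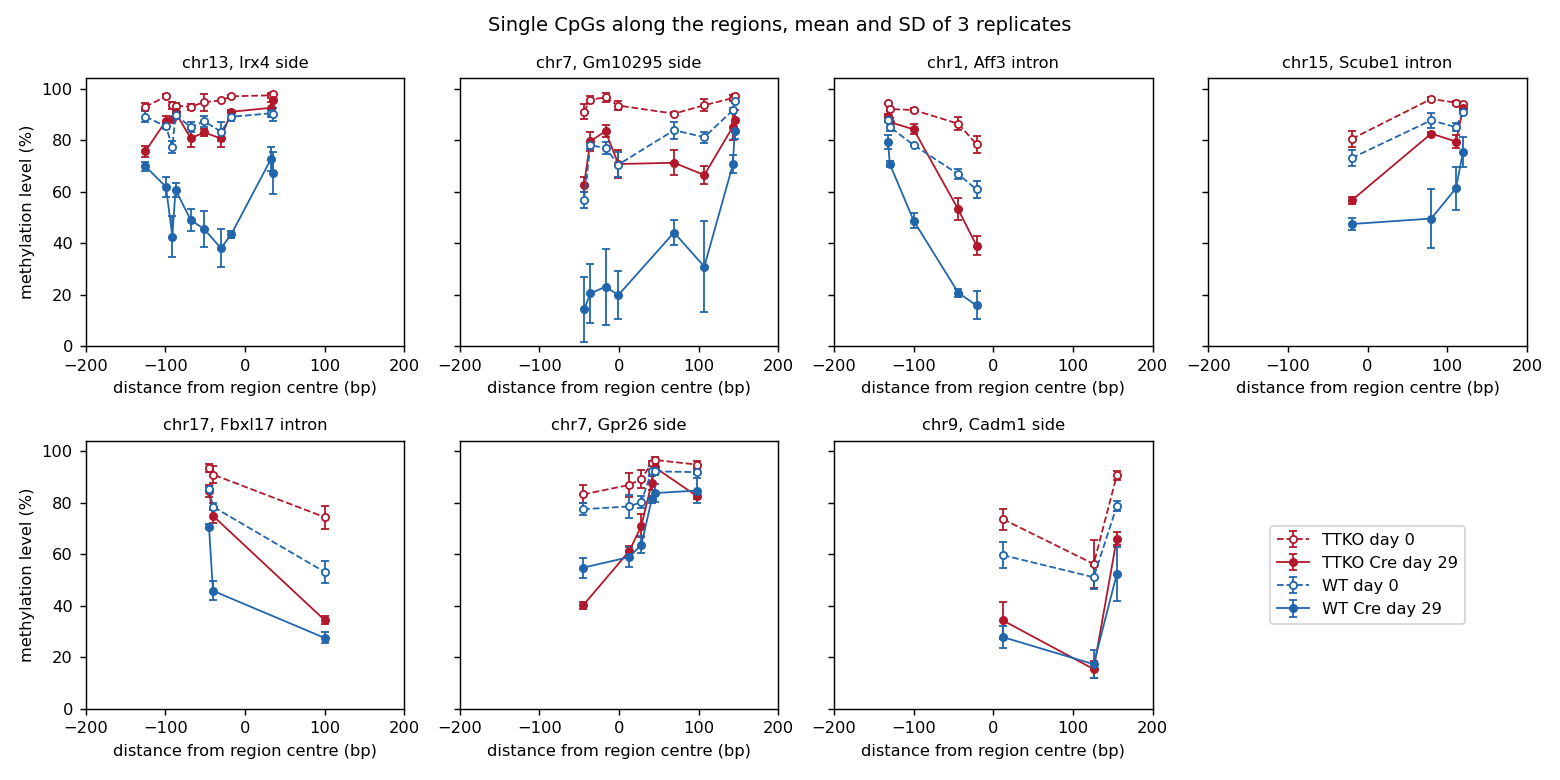
Methylation level (%, y axis) of each measured CpG against its distance from the centre of its region (bp, x axis), at day 0 (open points, dashed lines) and day 29 after Cre (filled points, solid lines) in TTKO (red) and WT (blue) cells. Points are means and bars SDs of 3 replicates. In the Aff3 intron the TTKO level at day 29 fell from 89.5% at -132 bp to 39.0% at -21 bp.

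Kept shares were higher at CpGs with a close neighbour. The 17 CpGs with another CpG within 10 bp kept a median of 92.1% in TTKO and 77.1% in WT cells, and the 22 CpGs without one kept medians of 77.3% and 52.3%. All of these shares are of the day 0 level. Over the 39 CpGs, the mock mean at day 29 was above the day 0 mean in WT cells (86.3% against 80.4%). In TTKO cells the means were 91.2% and 90.8%. Across the 39 CpGs, the kept share in TTKO cells and the log2 distance to the nearest CpG had r = -0.64 (Spearman's rho = -0.70), and r was -0.73 over the 7 region means. With the number of CpGs within 100 bp r was 0.20. The kept share also followed the day 0 level (r = 0.90 in TTKO, 0.70 in WT), and the kept shares of the lines followed each other less closely (r = 0.52). These are descriptions over CpGs that share reads and are not independent.

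Rates of methylation (k_me) and demethylation (k_de) were fitted to the TTKO time course, in which, without TET, demethylation is taken to be the failure of maintenance at replication. For the 33 CpGs of NP-specific LMRs whose rates could be determined, the median k_de was 0.00795 per day (log2 -6.98). It was 0.0197 per day (log2 -5.67) in 22 CpGs of fully methylated regions, 0.0486 (log2 -4.36) in 57 of other constitutive LMRs, 0.0861 (log2 -3.54) in 55 of ESC-specific LMRs and 0.0535 (log2 -4.23) over all 287 determined CpGs. In the other highly methylated classes it was 0.00874 (log2 -6.84) in 6 CpGs of the methylated UMR and 0.00597 (log2 -7.39) in 3 of the methylated island. The median k_me was 0.115 per day, beside 0.126 in fully methylated regions, 0.0947 in other constitutive LMRs and 0.0442 in ESC-specific LMRs. These are medians of fitted values and were not tested against each other. For CpGs close to full methylation, the paper states that k_me cannot be inferred exactly. Of the 33 CpGs, 28 had 95% ranges narrower than 2 log2 units for both rates.

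Among the members, log2 k_de was highest at chr9:47314168, at -4.23, followed by -5.05 at chr9:47314054, chr17:63460618, chr7:138970031 and chr1:38493551. By region the medians were -5.05 on the Cadm1 side, -6.84 in the Fbxl17 region, -6.91 on the Gm10295 side, -6.98 in the Scube1 region, -7.04 in the Aff3 region and on the Gpr26 side and -7.66 on the Irx4 side. The 6 CpGs whose rates could not be determined were among the slowest, with fitted log2 k_de from -9.86, the lowest rate the fit allows, to -8.35, and 4 of them were on the Irx4 side. Over all 39 CpGs the median was -7.11.

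**Figure D4:**
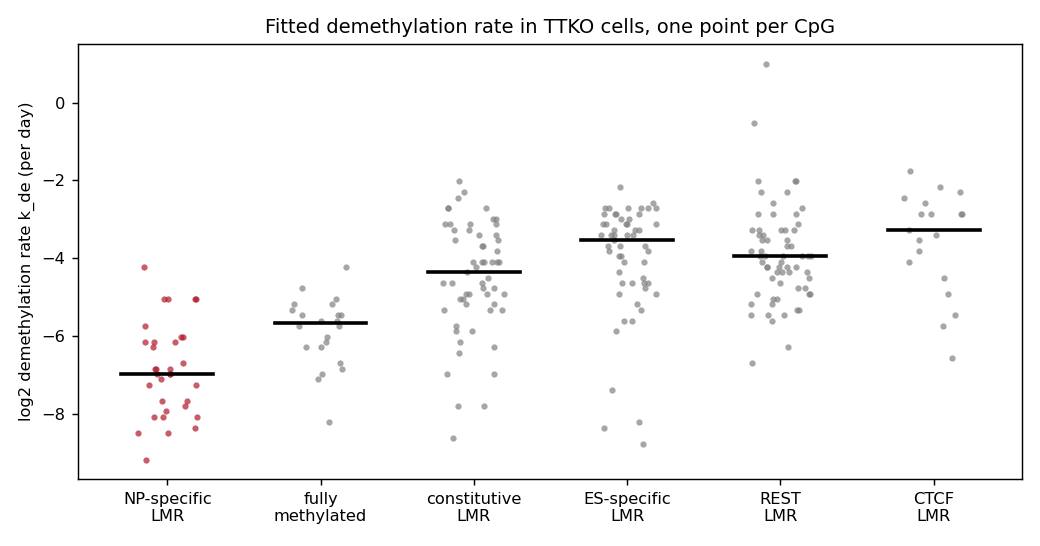
Fitted log2 demethylation rate k_de (per day, y axis) in TTKO cells for CpGs with determined rates in 6 region types (x axis), 1 point per CpG, with NP-specific LMRs in red and the median of each type as a bar. The median of the NP-specific LMRs was -6.98 and that of fully methylated regions -5.67.

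The capture data reached only the surroundings of 2 regions. Of the 8 CpGs within 2 kb, 7 lay beside the Irx4-side region without amplicon CpGs and 1, at chr17:63459568, lay 751 bp from the Fbxl17 region. Replicates are joined in these columns, so levels are given with 95% Wilson intervals and compared with a two-sided Fisher's exact test on the joined reads, which compares these libraries and not the spread between replicates. Coverage was 53 to 770 reads. In TTKO cells 7 of the 8 were lower at day 29 after Cre than at day 0, and 59.3% of all captured CpGs were. The largest differences were -36.0 points at chr13:73177134, from 54.8% (43.4 to 65.7) to 18.8% (11.9 to 28.4), -24.1 at chr13:73177185 and -22.9 at chr17:63459568.

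The smallest were 4.00 points at chr13:73177192 (adjusted p = 0.402), -12.2 at chr13:73177583 and -13.6 at chr13:73177354. The CpGs at 73177185 and 73177192 are 7 bp apart. The first went from 78.6% (71.9 to 84.1) to 54.5% (47.6 to 61.2) and the second from 81.7% (75.6 to 86.5) to 85.7% (80.4 to 89.7), so that neighbours at like levels on day 0 were far apart on day 29. Of the 8, 4 were higher in TTKO than in WT cells at day 0, where 44.7% of all captured CpGs were. The largest of these differences were 11.2 points at chr17:63459568 (adjusted p = 0.104), 9.30 at chr13:73177235 (adjusted p = 0.0486) and 7.10 at chr13:73177528, and the smallest were 4.40 at chr13:73177192, 5.50 at chr13:73177134 and 5.60 at chr13:73177185, none of which passed.

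**Figure D5:**
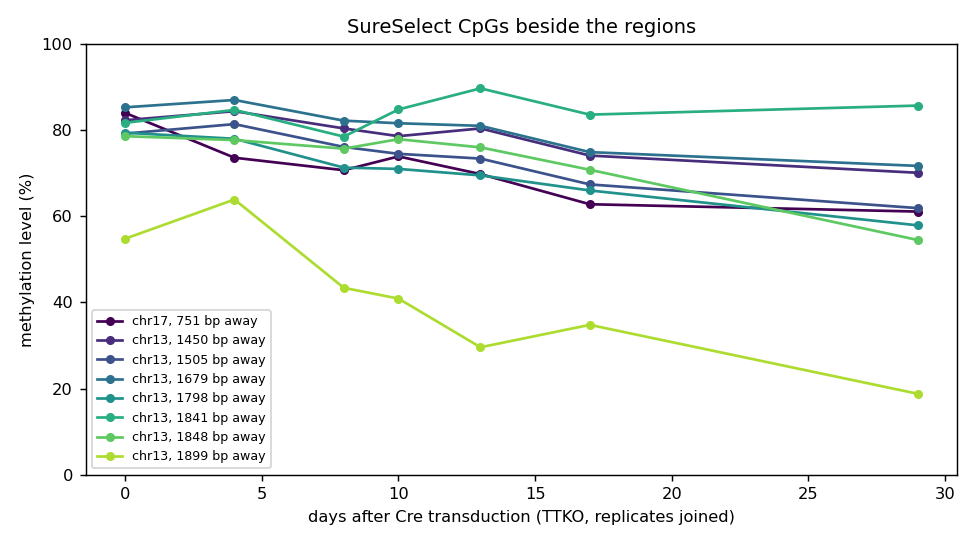
Methylation level (%, y axis) of the 8 captured CpGs within 2 kb of the regions in TTKO cells against days after Cre transduction (x axis), 1 line per CpG with its distance from the region's end in the key, replicates joined. The CpG 1841 bp away was at 85.7% at day 29 and the CpG 1848 bp away at 54.5%.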

How the data were processed

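The authors amplified bisulfite-converted DNA, or captured library DNA and converted it afterwards, aligned reads to mm9 and called levels of amplicon CpGs with AmpliconBiSeq. They deposited coverage counts and methylation levels as a fraction per amplicon sample (3 replicates, levels under 100 reads left out), and coverage counts with levels in percent for SureSelect, with replicates joined and at least 50 reads in every column. Columns with the authors' rates, TET activity and confidence were not used. Coverage times level was whole (tolerance 0.01 reads) at 100% of amplicon values, so read counts were tested.

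Methylated and unmethylated reads, with 0.5 added to each, were fitted per CpG or summed per amplicon with a quasi-binomial logistic model (R 4.3.3), two-sided, with dispersion moderated by squeezeVar of limma 3.58.1 and not below 1, and Benjamini-Hochberg adjustment over all features (threshold 0.05). A log2 odds ratio compares methylated to unmethylated reads between groups. SureSelect reads were compared by Fisher's exact test, since replicates were joined. Rates were fitted per replicate on 80 by 80 values (a step of a factor of 1.1, up to 2 per day) after the study's model, in which DNMT3 was lost at 0.5 per day, day 0 levels entered with a weight of 8% for undeleted alleles, conversion errors were 0.0025 in either direction, and counts were beta-binomial with an overdispersion of 0.0055. A rate counted as determined where the border of the grid held a probability under 0.08 in each replicate. The quasi-binomial fit of Cre against mock per CpG, Fisher's exact test and the rate fit were run on simulated data. The interaction, region-sum and limma fits were not.

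The members and lists were chosen with earlier results of these data known. CpGs named are the 3 lowest and 3 highest shares kept at day 29 in TTKO cells, the 3 largest and 3 smallest day 0 log2 odds ratios and capture differences, and CpGs not called in TTKO cells at day 29. The CpGs chr13:73207891, chr7:78616839, chr7:78616841, chr7:138970031, those of the interaction and those of the profiles were named after their values were seen. Reference sequence was NCBIM37 (mm9) with GENCODE M1. Alternatives were the replicate number as a block, leaving out each sample, limma on logit levels, higher coverage, a difference of 10 points, other flanks and other settings of the rate fit.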

Additional observations from a re-analysis of the deposited data

Results flagged for a closer look

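Groups of 3 replicates were not tested for samples that stand apart. The results below were selected because the day 29 effect of Cre differed between TTKO and WT cells by the test of the interaction, with adjusted p under 0.05 (log2 odds scale, TTKO effect minus WT effect). On the Irx4 side the interaction was 2.48 at chr13:73207817, 2.68 at chr13:73207821, 1.90 at chr13:73207840 and 1.95 at chr13:73207878, and 1.43 for the whole region. In the Aff3 intron it was 0.91 at chr1:38493528. For the whole Scube1 region it was 0.84. In each of these the effect in TTKO cells was the less negative one. The 5 CpG calls rest on single samples and settings: 0 to 15 were called when 1 sample was left out, and 3 by limma on logit levels. The mean of the 39 CpGs in the mock samples at day 29 was 86.3% in WT cells, against 80.4% at day 0, and 91.2% in TTKO cells, against 90.8% at day 0. The part of these mock values in the interaction was not tested.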

How the results depend on the processing

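Coverage of the Cadm1-side region and days with missing levels limit the precision, and intervals from reads leave out the spread between replicates. Leaving out single samples gave 33 to 37 called CpGs in TTKO and 37 to 39 in WT cells at day 29 after Cre, 24 to 31 at day 0, 7, 7 and 6 regions for the same comparisons, 0 to 15 CpGs and 1 to 3 regions for the difference between lines and a median log2 k_de of -7.11 to -6.98. Means over the CpGs measured in every sample ranged from 93.3% to 93.9% (TTKO day 0), 78.95% to 79.8% (TTKO Cre day 29), 93.2% to 93.8% (TTKO mock day 29), 80.3% to 81.0% (WT day 0), 45.6% to 48.8% (WT Cre day 29) and 85.9% to 86.6% (WT mock day 29). The causes of the changes below were not tested.

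Same-numbered replicates had correlations of their deviations from -0.188 to 0.218, so the numbers were not taken as pairs. With the replicate number as a block, 1 CpG was called at day 8 in TTKO cells in place of 3, and 0 CpGs in place of 5 for the difference between lines, while the 2 regions of that comparison became 3. With limma on logit levels the counts were 0 at day 8 and 7 in place of 11 at day 13 in TTKO cells, 1 at day 4, 8 in place of 15 at day 10 and 10 in place of 18 at day 13 in WT cells, and 3 CpGs and 3 regions for the difference between lines. Asking also for 10 points left 7 of 16 at day 10, 5 of 11 at day 13 and 16 of 26 at day 17 in TTKO cells, 13 of 32 at day 0 and 0 of 4 captured CpGs at day 0. With 1000 reads or more, 5 of the 11 CpGs left to test were called at day 8 in WT cells in place of 11 of 35. Within 1 kb, 1 captured CpG was left, called at day 29 and not at day 0, and inside the regions there was none.

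Averaging over regions gave 92.0% (TTKO day 0), 75.7% (TTKO Cre day 29), 91.9% (TTKO mock day 29), 78.6% (WT day 0) and 84.4% (WT mock day 29). With each sample's own CpGs the means were 90.8%, 73.9%, 91.2% (TTKO day 0, Cre and mock day 29) and 51.2% (WT Cre day 29). The median log2 k_de was -7.11 with a DNMT3 loss of 1 per day, with a binomial likelihood or over all CpGs, and -6.84 over CpGs with narrow ranges. Of the 87 values under other settings, 58 stayed within 1.5 times the count or 1 SD of the value. The test of the difference between lines on region sums and the cutoff of 50% at day 0 were added after the data were seen.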
